A study of Mus musculus with 6 samples.

Results

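Chromatin accessibility was described at the loci of the forkhead box (Fox) transcription factors in mouse intestinal crypts. The members were all protein-coding genes of the GENCODE M21 annotation of GRCm38 whose symbol is Fox followed by a letter and a number, which gave 44 of 21938 protein-coding genes. A peak was assigned to a member when its summit lay in the gene body or within 10 kb of either end. These windows held 204 of the 71286 consensus peaks obtained by merging peaks of the 6 samples that overlapped by at least 1 base. Of the 204, 2 fell in the windows of 2 members at once, 1 shared by Foxc2 and Foxl1 and 1 by Foxd2 and Foxe3.

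Forkhead factors bind DNA through a winged-helix domain and share a short recognition sequence, so members differ mainly in where and when they are expressed. FOXA proteins are pioneer factors of the gut endoderm that can bind nucleosomal DNA. FOXO proteins are held in the cytoplasm by insulin and growth factor signalling through PI3K and AKT and act on stress, cell cycle and metabolic genes when that signalling is low. FOXM1 drives the expression of mitotic genes in dividing cells, and FOXF and FOXL1 mark the mesenchyme beneath the epithelium.

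The samples were 3 WT and 3 Arid3a cKO libraries of intestinal crypts, the pits that hold stem cells and dividing progenitors. By the study's methods the cKO mice were VillinCre-ERT2+/-; Arid3a fl/fl, so that tamoxifen removes Arid3a, an AT-rich DNA binding factor, from Villin-expressing epithelium and not from stroma. Both genotypes received tamoxifen on 3 consecutive days and were sampled at 1 month, and neither age nor whether WT animals carried the floxed allele or Cre is given in the sources used here. In ATAC-seq a transposase tags open DNA, and a peak is a stretch with more fragments than the local background.

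The lists held 40492, 50704 and 55091 peaks in WT 1 to 3 and 58297, 46415 and 51464 in cKO 1 to 3, covering 29.3 to 48.1 Mb, and the fragment coverage implied by the peak statistics was 1.75 to 2.29 per base. The promoter of Arid3a itself was called in all 6 lists, at the 64.7, 61.1 and 54.4 percentile of fold enrichment in WT and 46.5, 56.7 and 43.7 in cKO, and since a deletion of exons need not close a promoter this does not check the labels. Of 11 epithelial marker promoters 6 were called in all 6 lists and the other 5 in some. No promoter of the 10 immune markers was called in any list, 1 of 5 endothelial promoters was called in some lists, 2 of 10 mesenchymal promoters were called in all 6 and 2 in some, and 1 of 6 enteric nervous system promoters was called in all 6 and 1 in some. In bulk crypts a peak in fewer cells and a less open peak in every cell cannot be told apart, and a locus without a called peak may still be open below the caller's threshold.

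The sequence under the distal peaks of the gut and growth-control members is shown first, so that the elements described below can be read. Each is the 101 bp window centred on the summit of the highest-ranked peak outside a promoter at that member, read 5′ to 3′ on the plus strand of GRCm38.p6, with windows that touch an annotated UTR left out. Capitals mark a match to a motif on either strand. The forkhead motif was TGTTTAC with the variants that replace its second letter, giving TATTTAC, or its penultimate letter, giving TGTTTGC. The ARID3 motif was ATCAAA or alternatively ATTAAA, and the AP-1 motif was TGACTCA, whose reverse complement is TGAGTCA. None of the 5 windows holds a match.
Foxa1, 11037 bp downstream of its start site, chr12:57535034-57535134: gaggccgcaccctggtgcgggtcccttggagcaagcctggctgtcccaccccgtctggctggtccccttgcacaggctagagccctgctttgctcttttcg
Foxa2, 5501 bp downstream, in an intron of 9030622O22Rik, chr2:148039913-148040013: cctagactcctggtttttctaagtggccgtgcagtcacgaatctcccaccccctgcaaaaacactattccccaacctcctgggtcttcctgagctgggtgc
Foxa3, 5886 bp upstream, in an intron of Sympk and called in WT 2 only, chr7:19029374-19029474: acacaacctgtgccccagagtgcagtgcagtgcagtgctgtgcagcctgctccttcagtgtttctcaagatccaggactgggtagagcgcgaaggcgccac
Foxo3, in an intron 55511 bp downstream, chr10:42202805-42202905: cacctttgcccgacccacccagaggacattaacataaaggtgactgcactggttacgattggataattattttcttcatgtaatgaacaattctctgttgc
Foxm1, 7058 bp upstream and outside annotated genes, chr6:128355859-128355959: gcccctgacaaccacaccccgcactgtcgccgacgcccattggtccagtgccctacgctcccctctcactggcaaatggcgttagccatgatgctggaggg

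As among all protein-coding genes, accessible loci were more common among the members than open promoters. A peak lay in the window of 34 of 44 members in all 6 lists, which is 77.3% of members beside 70.6% of all protein-coding genes. A promoter peak, meaning a summit from 1000 bp upstream to 100 bp downstream of an annotated start site (TSS), was called in all 6 lists at 16 members, or 36.4%, beside 44.6% of all protein-coding genes. A further 11 members had a promoter peak in 1 to 5 lists and 17 in none. When a peak covering any base of a TSS was counted instead, 21 members were called in all 6 lists beside 56.1% of all protein-coding genes, a reading added after the data were seen. It gained Foxc2, Foxd1, Foxk1, Foxo1, Foxo3 and Foxp3, whose peaks covered the TSS in every list while the summit missed the window in at least 1 of them, and lost Foxc1.

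Most members with a promoter peak in every list had several coding exons, as did 28 of all 44 members. Of 16 members whose coding sequence lies in 1 exon, 2 had a promoter peak in all 6 lists, Foxc1 and Foxd2, and 14 of the 28 with several coding exons did. The same split was not made over all protein-coding genes. The median CpG observed-to-expected ratio around the outermost start of the gene was 0.811 for the 16 members called in all 6 lists and 0.628 for the 17 called in none. The outermost start need not be the called one, as at Foxj3.

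All 3 FOXA promoters were called in every list. The genes lie on the minus strand of GRCm38 at chr12:57540628-57546916 (Foxa1), chr2:148042877-148046969 (Foxa2) and chr7:19013284-19023538 (Foxa3). Foxa3, which acts with its paralogs in gut and liver, ranked highest, at the 82.3, 84.7 and 81.3 percentile of fold enrichment in WT 1 to 3 and at 76.4, 82.8 and 73.0 in cKO 1 to 3. A percentile here is the share of the peaks in the same list with a lower fold enrichment, so that lists of different depth can be set side by side. Where a gene has promoter peaks at several annotated start sites, the highest percentile in each list was taken. Foxa2 lay at 62.7, 65.5 and 74.5 in WT and 60.3, 66.8 and 56.0 in cKO, and Foxa1 at 60.9, 56.8 and 53.1 in WT and 39.7, 52.3 and 39.3 in cKO. The genotypes overlapped at Foxa2 and Foxa3 and did not at Foxa1, where the highest cKO list lay below the lowest WT list.

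The promoter of Foxm1 (chr6:128362967-128376146, plus strand), the mitotic factor, was among the most enriched of the family, at the 87.3, 90.1 and 89.7 percentile in WT and 89.3, 86.9 and 92.1 in cKO. Its fold enrichment was 9.89 to 13.4 over the 6 lists. The summit of this peak lay 94 bp upstream of the Foxm1 start site and inside the gene Rhno1, and no test here assigns it to 1 of them. The genotypes overlapped fully, with means of 89.1 ± 1.51 in WT and 89.5 ± 2.57 in cKO (SD, n = 3; exact permutation p = 1.0). The second Foxm1 peak, 7058 bp upstream, lay at 74.7 to 92.6.

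The promoters of the broadly expressed members stood beside Foxm1. Foxk2, which with Foxk1 represses starvation-response genes, lay at 90.8 ± 2.24 in WT and 87.1 ± 3.83 in cKO, and Foxj3 at 87.6 ± 1.09 and 88.5 ± 2.10 (SD, n = 3). Foxj2 and Foxn2 averaged 79.3 ± 13.4 and 72.2 ± 5.79 in WT and 82.4 ± 1.59 and 63.5 ± 8.16 in cKO. The Foxj2 value of WT 1 (64.1) came from the peak of another start site than in the other lists. Neighbours in this order did not separate beyond their spread, since the ranges of Foxm1, Foxk2 and Foxj3 overlapped. Foxn3, a checkpoint-linked repressor, was the least even: its promoter ranked at 14.9 in WT 1 and between 47.5 and 67.3 in the other 5 lists. Foxk1 had a promoter summit in 5 of 6 lists, at 53.4 to 77.1, and a peak over its TSS in all 6.

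FOXO loci were called throughout, with their summits in different places. Foxo4 had a promoter peak at 57.3 to 77.9 and Foxo6 at 66.7 to 82.2. Foxo3, the FOXO member most linked to longevity and stress resistance, had a peak over its TSS in all 6 lists whose consensus summit lay 1037 bp upstream of the nearest start site, at 60.2, 63.8 and 59.2 in WT and 49.8, 72.8 and 43.1 in cKO. Its intron peak 55511 bp downstream, shown above, ranked higher than that, at 73.1, 82.9 and 85.9 in WT and 91.2, 84.5 and 80.5 in cKO. Foxo1 had a peak over its TSS in all 6 lists at 30.2 to 51.6 and a second 14260 bp downstream, over an exon of the noncoding gene Gm38034, at 63.2 to 76.2. Thus by fold enrichment, at both Foxo1 and Foxo3 an element inside the gene outranked the peak at the start in 6 of 6 lists. By -log10 q and by pileup, the fragments at the summit, the order was reversed in every list at both genes. At Foxo3 the pileup was 135 to 417 fragments at the start and 44 to 165 at the intron peak. At Foxo1 it was 64 to 203 at the start and 26 to 64 at the peak 14260 bp downstream.

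At the mesenchymal members promoter peaks were called in part of the lists. Of Foxf1, Foxf2, Foxl1, Foxc1, Foxc2, Foxd1 and Foxs1, only Foxc1 had a promoter peak in all 6 lists, at 11.1 to 51.1. By coverage of a TSS, Foxc2 and Foxd1 were called in all 6. Foxf1, which patterns the gut mesenchyme, was called in 5 lists at 33.3 to 64.3, absent in WT 1. Foxl1, a marker of the telocytes that supply Wnt ligands to crypts, had no promoter peak in any list, and the only peak in its window was the one shared with Foxc2. Foxf2 had a promoter summit in WT 2 and cKO 3, at 14.1 and 19.8, Foxc2 in cKO 2 at 8.22 and Foxd1 in cKO 3 at 53.2. Foxs1 had no peak at all. The markers of mesenchyme were also called in part: the promoters of Pdgfra and Col1a1 were called in all 6 lists, Gli1 and Des in some, and Dcn, Lum, Acta2, Col3a1, Col1a2 and Pdgfrb in none. The part of mesenchymal cells in these Fox peaks was not tested.

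FOXP members differed in their number of peaks. Foxp1 (chr6:98925338-99522721, minus strand), a repressor expressed in many tissues, had 49 consensus peaks, the most of any member, while Foxp2, a gene of neurons known for its part in speech, had 2 in a gene body of 541 kb. The highest promoter peak of Foxp1 in each list lay at 71.45 to 75.4 in WT and 68.5 to 72.7 in cKO. In WT 2 it was the peak of another start site than in the other lists. The promoter peak over the outermost start of Foxp1 lay lower, at 38.0 to 62.7. Foxp1 spans 597 kb, so per 100 kb of window the numbers were 7.94 and 0.357. The Foxp2 peaks were in cKO lists only, 1 in cKO 1 and 2 in cKO 3, and the counts gave an exact permutation p of 0.4. Foxp4 had 8 consensus peaks but no promoter summit or covered TSS in any list.

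Foxp3, the master factor of regulatory T cells, had a peak in its window in every list and no promoter summit in any. By the same window measure, 5 of the 10 immune markers had a peak in all 6 lists and 2 in some, while none had a promoter peak. The Foxp3 peak covered a TSS of the gene, with the summit in an intron 817 bp downstream, at 76.6, 82.8 and 84.7 in WT and 70.8, 82.4 and 69.9 in cKO. It also overlaps the noncoding gene Flicr. Its pileup was 46 to 126 fragments, and no test here assigns it to a gene or a cell type.

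Of the members placed with epithelial differentiation, Foxq1, a factor of mucus-producing surface epithelium, was called in every list with a summit in its UTR, 1941 bp downstream of the TSS, at 74.8, 73.5 and 71.3 in WT and 56.5, 73.9 and 49.4 in cKO. No Foxq1 summit lay in the promoter window. Foxn1, the factor of thymic and hair epithelium, had 9 consensus peaks in its window, 5 of them in all 6 lists, while its promoter was called only in cKO 3 at 9.51.

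Among the other members, Foxd2, Foxi3 and Foxj1 had promoter peaks in all 6 lists. Foxj1, the master gene of motile cilia, lay at 75.1 to 84.7 and Foxi3, a factor of ectodermal appendages, at 71.3 to 85.0. Foxb1, Foxd3, Foxi1, Foxr1 and Foxs1 had no peak in their windows in any list, and Foxb2, Foxd4, Foxi2, Foxn4 and Foxp2 had one in 1 to 5 lists. The promoter of Foxn4, a factor of retina and spinal cord, was called in 5 lists at 24.0 to 56.0, and that of Foxe1, a thyroid factor, in WT 2 and cKO 1 at 2.40 and 27.0. Some of the strongest peaks belong to neighbours: 13 of the 204 were promoter peaks of other genes. The top-ranked peaks in the Foxc2 and Foxh1 windows, which ranked from 87.4 to 95.2 and from 89.7 upwards, overlapped Mthfsd and Ppp1r16a.

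**Figure D1:**
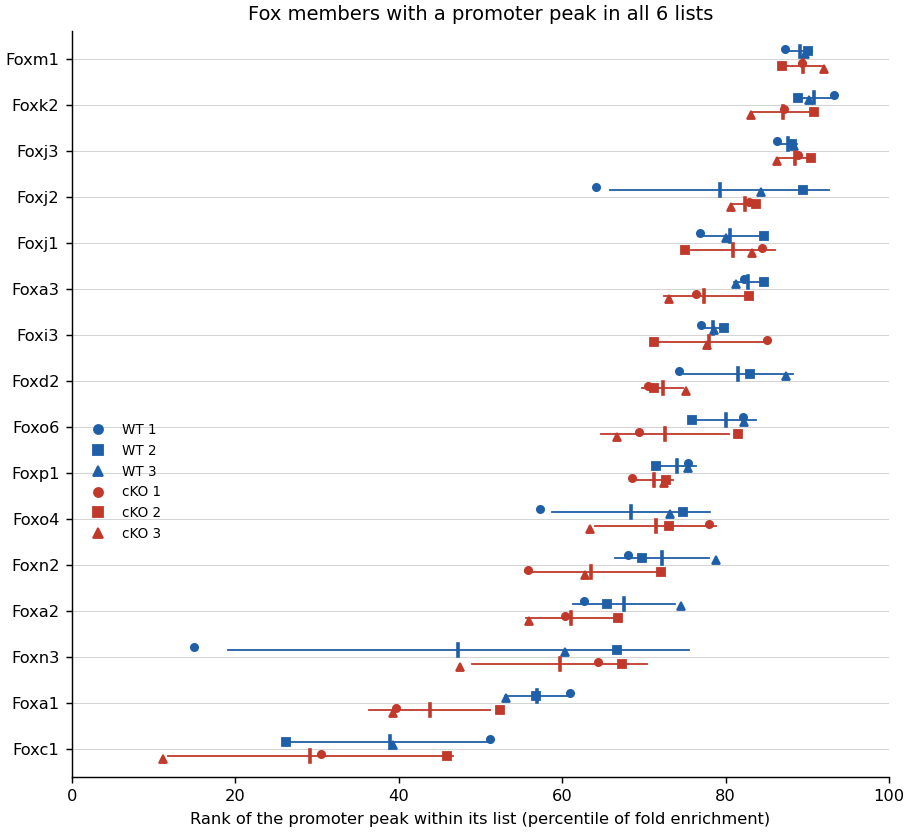
Rank of the promoter peak of the 16 Fox members that had one in all 6 lists, as the percentile of fold enrichment within the list (horizontal axis). Where a member had several promoter peaks in a list, the highest is shown. Points are samples, vertical bars genotype means and horizontal lines 1 SD (n = 3); Foxm1, Foxk2 and Foxj3 lie at the top, between 83.2 and 93.2, Foxa1 and Foxc1 at the bottom, and Foxa1 is the one member whose WT and cKO points do not overlap.

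The list of genes around the family was called as follows. Of 14 FOXM1 target genes, mitotic genes such as Plk1, Aurka and Cenpf, 13 had a promoter peak in all 6 lists, beside 44.6% of all protein-coding genes, and Nek2 had none. Cenpf lay at 97.4 to 99.8 and Aurka at 94.8 to 98.0. Of 15 genes that control FOXO activity 11 were called in all 6, 3 in some and 1, Skp2, in none, and of 20 FOXO targets 15 were called in all 6, 3 in some and 2, the muscle ligases Fbxo32 and Trim63, in none. Of 5 FOXA targets of the gut secretory lineage only Pax6 was called in all 6, and Muc2 and Gcg in none. No promoter of these genes was called in 3 of 3 cKO and 0 of 3 WT lists, beside 0.119% of all protein-coding genes, or the reverse, beside 0.146%.

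The number of peaks per locus followed gene size at the top of the order. Foxp1 and Foxn3 together held 75 of the 204 consensus peaks, or 36.8%. Foxn3, whose gene spans 374 kb, had 26 consensus peaks, followed by Foxo3 with 12, Foxk1 with 10 and Foxn1 with 9. Per 100 kb of window the order changed: Foxn1 had 18.4, Foxk1 12.4, Foxo3 10.4, Foxp1 7.94 and Foxn3 6.61.

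Foxp1 had 32, 33 and 42 peaks in WT 1 to 3 and 41, 33 and 35 in cKO 1 to 3, and the genotypes overlapped (exact permutation p = 0.9). Foxn3 had 13, 16 and 21 in WT and 24, 14 and 20 in cKO (exact permutation p = 0.6). In both genes the counts were high in WT 3 and cKO 1, the 2 longest lists. Of the 49 Foxp1 peaks 22 were called in all 6 lists and 9 in 1 list, and 46 lay in introns and 3 at annotated promoters. Of the 26 Foxn3 peaks 13 were called in all 6 lists.

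**Figure D2:**
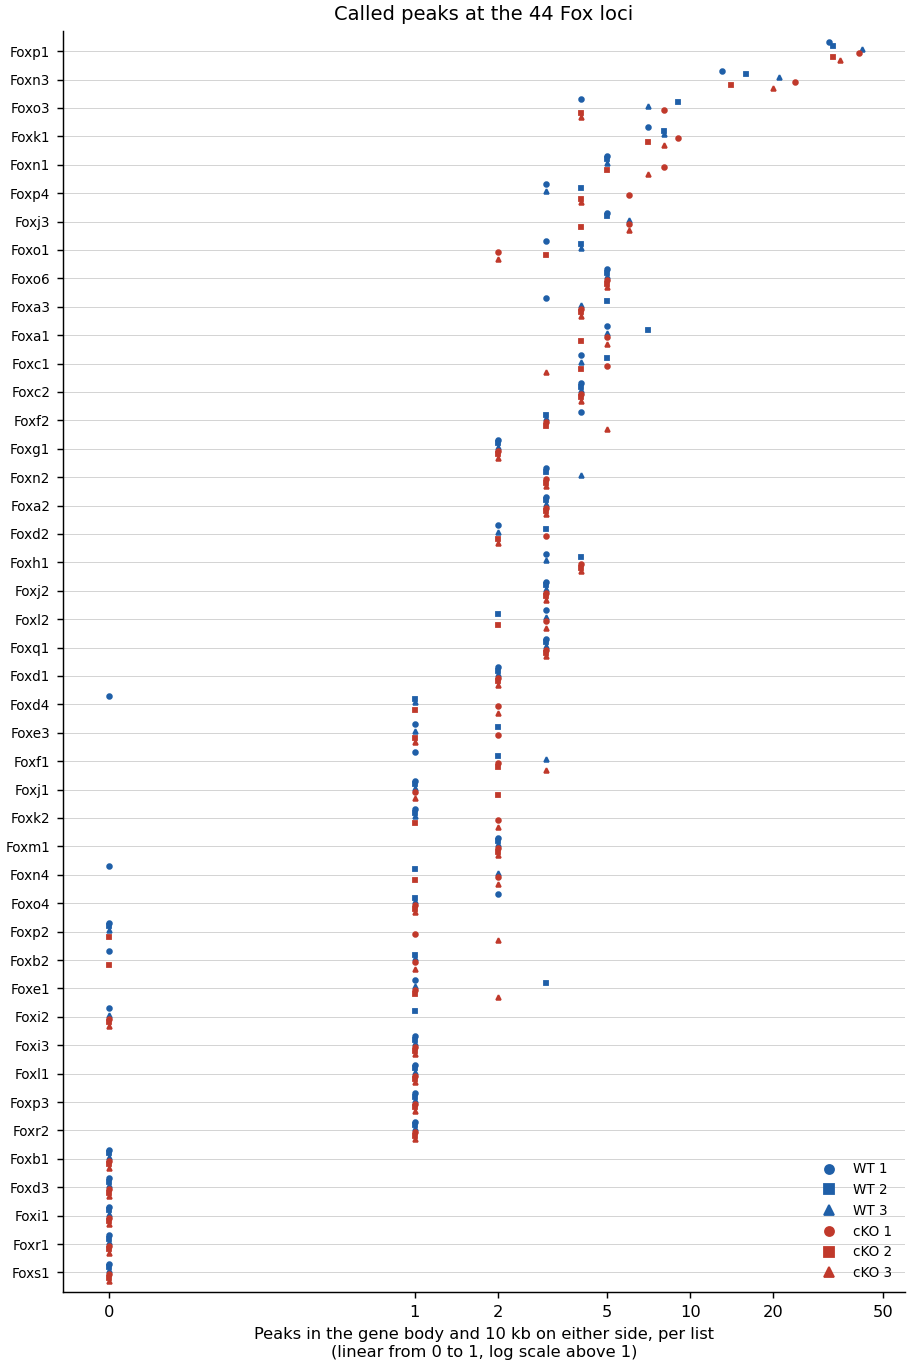
Number of called peaks in the gene body and 10 kb on either side of each of the 44 Fox genes (horizontal axis, linear from 0 to 1 and logarithmic above), with 1 point per sample. Foxp1 and Foxn3 stand apart with 32 to 42 and 13 to 24 peaks per list, and the 5 loci at the bottom have none in any list.

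**Figure D3:**
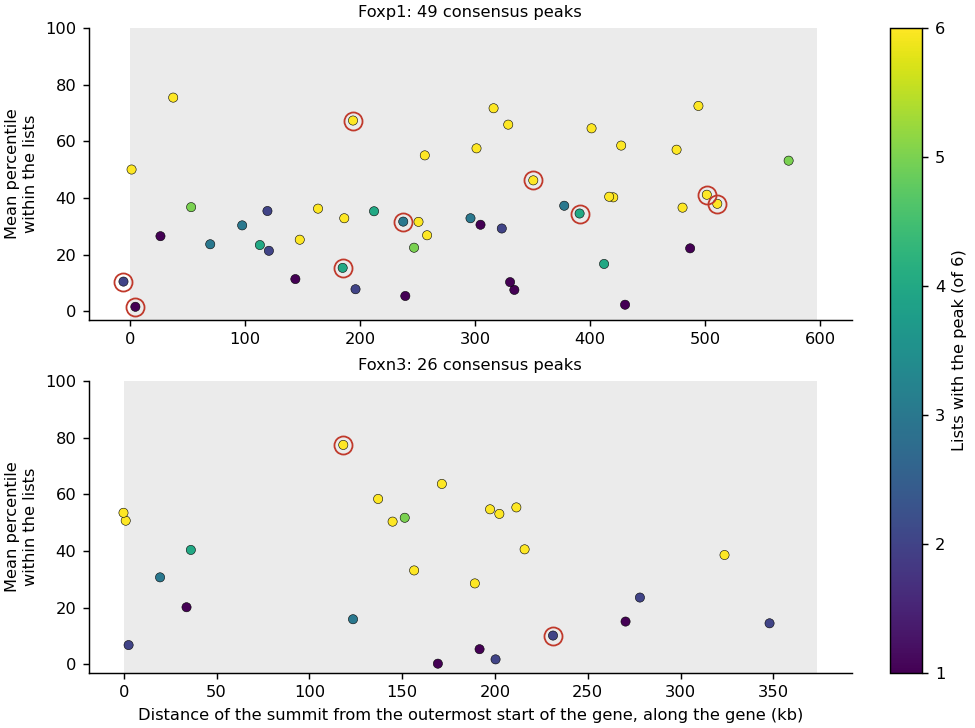
Consensus peaks along Foxp1 and Foxn3 by distance of the summit from the outermost start of the gene (horizontal axis, kb; grey is the gene body) against the mean percentile over the lists that called them. Colour gives the number of lists and red rings mark a forkhead motif within 100 bp of the summit; peaks in all 6 lists lie mostly above those in 1 or 2 lists.

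The genotypes overlapped in how often the family was called. A peak was found at 34, 38 and 37 members in WT 1 to 3 and at 38, 36 and 38 in cKO 1 to 3 (exact permutation p = 0.7). The windows held 133, 156 and 163 peaks in WT and 175, 137 and 159 in cKO (exact permutation p = 0.7), which is 0.328%, 0.308% and 0.296% of each WT list and 0.300%, 0.295% and 0.309% of each cKO list (exact permutation p = 0.6). Promoter peaks were called at 18, 22 and 19 members in WT and 19, 20 and 23 in cKO (exact permutation p = 0.6). All 4 measures overlapped between the genotypes in the lists as deposited, and with 3 against 3 samples the smallest p an exact permutation test can give is 0.1. With lists cut to equal length the number of peaks no longer overlapped and was lower in cKO (exact permutation p = 0.1). Their share of the list is then the same result, since all lists have the same length. With 0 kb added to the gene body the share did not overlap either (exact permutation p = 0.1).

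No Fox consensus peak was called in 3 of 3 cKO and 0 of 3 WT lists, beside 0.464% of all consensus peaks, or in 3 of 3 WT and 0 of 3 cKO lists, beside 0.111%. Of the 204 peaks 111, or 54.4%, were called in all 6 lists, beside 45.9% of all consensus peaks, and 39 were called in 1 list. With cKO 2 left out, 10 of 202 Fox consensus peaks were called in both remaining cKO lists and in no WT list: 3 at Foxn3, 2 at Foxp1 and 1 each at Foxp2, Foxn1, Foxk2, Foxp4 and Foxd4. Over all consensus peaks the same count was 1819 of 69810, or 2.61%, against 331 with all 6 lists. The 10 ranked between 3.99 and 35.0, and cKO 1 and cKO 3 cover more of the genome, 48.1 and 43.5 Mb, than cKO 2 with 33.4 Mb. The part of depth in these calls was not tested.

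The mean rank of the Fox promoters was lower in cKO, and the lists of the genotypes overlapped. The median percentile of the Fox promoter peaks in a list was 73.1, 70.8 and 78.5 in WT and 69.4, 72.4 and 62.8 in cKO, with means of 74.2 ± 3.96 and 68.2 ± 4.94 (SD, n = 3; exact permutation p = 0.2). The difference of -5.96 points was -0.35 when ranked by -log10 q, -2.34 with a promoter of 500 bp either side and -3.24 without cKO 3. Over all protein-coding promoters the medians were 84.2, 85.0 and 85.6 in WT and 83.0, 84.8 and 81.9 in cKO. In the Klf family, 17 zinc finger factors with several epithelial members, 12 to 14 promoters were called per list with medians of 68.5, 68.1 and 65.6 in WT and 57.4, 70.6 and 56.9 in cKO.

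Of the 111 Fox peaks in all 6 lists, 64 had a lower mean in cKO and 47 a higher one, with a median difference of -0.86 percentile points beside -0.09 for all 32748 such peaks. In 10 of the 111, or 9.01%, every cKO list ranked below every WT list, beside 7.04% of all, and in 2, or 1.80%, every cKO list ranked above, beside 4.66%. limma on rank scores called 0 of 111 Fox peaks at an adjusted p under 0.05, beside 0% of all 32748, and the lowest adjusted p in limma was 0.776. At an unadjusted p under 0.05 in limma, 5 Fox peaks were lower and 0 higher in cKO, beside 2.75% and 3.24% of all peaks. That split moved with the setting: limma gave 4 higher and 3 lower on quantile-normalized log2 fold enrichment, 5 higher and 3 lower without WT 3, 1 and 1 when ranked by -log10 q, and 4 higher and 15 lower without cKO 2. None of the rank differences below passed the adjusted test, so they are given as values.

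**Figure D4:**
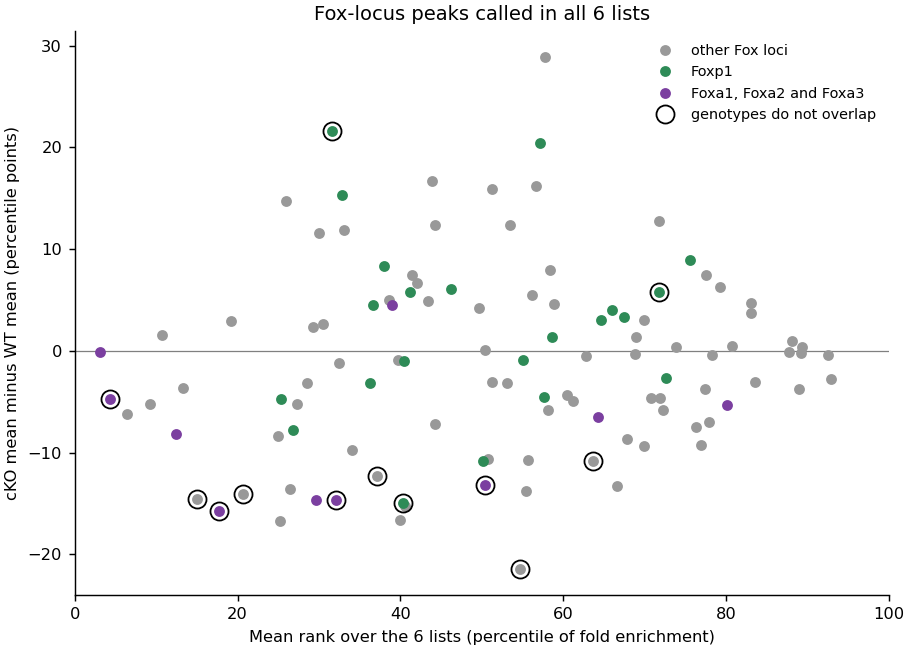
Difference in mean rank (cKO minus WT, percentile points) against mean rank over the 6 lists for the 111 Fox-locus peaks called in all of them. Purple points are the 10 FOXA-locus peaks, of which 9 lie below 0, green points the 22 Foxp1 peaks, of which 13 lie above 0, and black rings the 12 peaks whose genotypes do not overlap.

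Of the 10 FOXA-locus peaks in all 6 lists 9 had a lower mean rank in cKO, with a median difference of -7.36 points. In 4 of the 10 every cKO list ranked below every WT list, beside 7.04% of all peaks in 6 lists. Of these 4, 3 were at Foxa1 and 1 at Foxa2, and each had an exact permutation p of 0.1. The peak 1786 bp upstream of Foxa2 lay at 32.2, 20.4 and 24.4 in WT and 9.06, 9.32 and 11.3 in cKO, with an adjusted p of 0.776 in limma. The peak 11037 bp downstream of Foxa1, shown above, lay at 39.8, 40.8 and 37.7 in WT and 20.6, 31.7 and 22.1 in cKO, and the one at 6980 bp lay at 9.89, 4.79 and 5.48 in WT and 1.13, 4.24 and 0.608 in cKO. At these 3 peaks every cKO list ranked below every WT list. Fold enrichment at the Foxa2 peak was 4.15 to 4.30 in WT and 3.31 to 3.50 in cKO.

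The direction at the FOXA loci depended on the measure. When peaks were ranked by -log10 q in place of fold enrichment, 5 of the 10 were lower in cKO. At the Foxa1 promoter the pileup was 91, 144 and 179 fragments in WT and 246, 106 and 179 in cKO, a number which is not scaled for depth and did not follow the order of the ranks. The median percentile of the called epithelial marker promoters was 69.6, 63.4 and 70.6 in WT and 57.4, 62.6 and 52.8 in cKO, lowest in cKO 1 and cKO 3. It was taken over the 8 to 11 markers called in each list. The medians over all protein-coding promoters (83.0 and 81.9) and over Klf promoters (57.4 and 56.9) were also lowest in cKO 1 and cKO 3. That of the FOXM1 target promoters was lowest in WT 1 and cKO 2 (88.4 in both). The part of cell composition and of depth in the FOXA ranks was not tested.

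**Figure D5:**
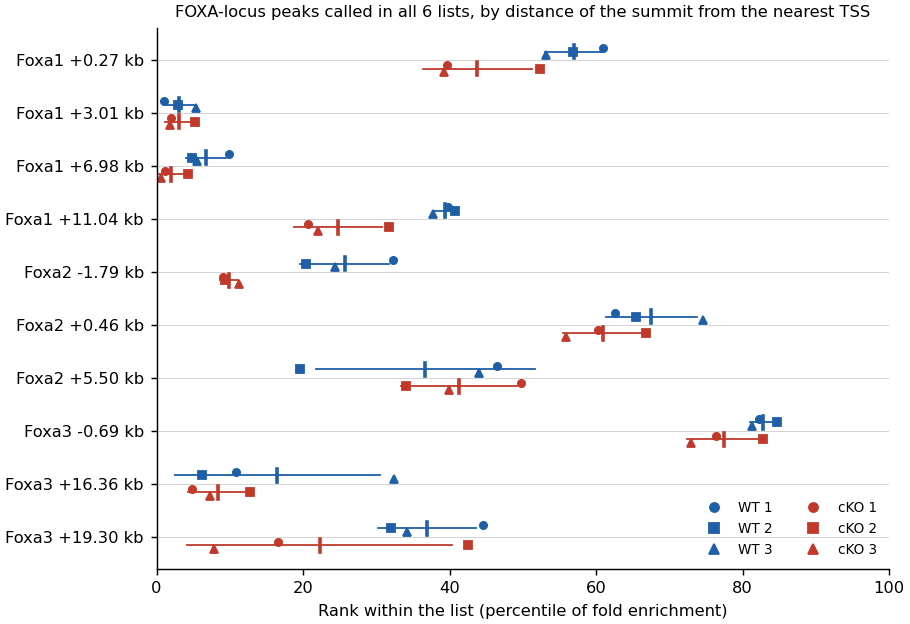
Rank of each FOXA-locus peak called in all 6 lists (percentile of fold enrichment, horizontal axis), labelled by the distance of its summit from the nearest TSS in the direction of transcription. Points are samples, vertical bars genotype means and horizontal lines 1 SD (n = 3); cKO 2 lies nearer to WT than cKO 1 and cKO 3 at the Foxa1 and Foxa3 promoters, and the Foxa2 peak at -1.79 kb shows 3 cKO points below all WT points.

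Outside FOXA the groups were mixed. At Foxp1 13 of 22 peaks had a higher mean in cKO, beside 49.3% of all peaks in 6 lists, and the median difference was 3.15 points. The broadly expressed members had 18 of 30 lower (median -3.15), the mesenchymal members 9 of 13 lower (median -3.06), and FOXO 5 of 10 lower (median 1.29). Both Foxm1 peaks had a slightly higher mean in cKO, with a median of 2.06.

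The 3 lowest differences in mean rank were at an intron peak of Foxn3 (chr12:99365878-99366665), a coding exon peak of Foxc1 (chr13:31807017-31808821) and a peak downstream of Foxd1, a factor of stromal cells (chr13:98365784-98366786). The Foxn3 peak lay at 61.1, 67.3 and 68.0 in WT and 53.0, 41.5 and 37.5 in cKO, a difference of -21.45 points in which the genotypes did not overlap. The Foxc1 peak lay at 51.0, 21.5 and 28.3 in WT and 11.9, 24.3 and 14.4 in cKO, and the Foxd1 peak at 46.4, 49.8 and 48.7 in WT and 52.0, 9.52 and 33.5 in cKO. At Foxc1 and Foxd1 the genotypes overlapped, and at Foxd1 the low mean rests on cKO 2 and cKO 3.

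The 3 highest differences were at an intron peak of Foxj3 (chr4:119589427-119590016) and 2 intron peaks of Foxp1 (chr6:99270946-99272580 and chr6:99046997-99048018). The Foxj3 peak lay at 30.2, 28.6 and 71.2 in WT and 92.9, 39.1 and 84.6 in cKO, with pileups of 12, 12 and 27 fragments in WT and 44, 13 and 30 in cKO. Its high values were in WT 3, cKO 1 and cKO 3, the 3 lists that cover the most of the genome, so the genotypes overlapped. The first Foxp1 peak lay at 1.85, 28.1 and 32.5 in WT and 41.8, 51.2 and 34.2 in cKO with no overlap, and the second at 28.4, 48.6 and 63.6 in WT and 71.4, 53.6 and 76.9 in cKO. All 6 had an adjusted p of 0.776 in limma.

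The forkhead motif itself was sought in the peaks. One of the 3 forkhead motifs, on either strand, lay within 100 bp of the summit in 18 of 204 peaks, or 8.82%, beside 10.9% of all consensus peaks. An ARID3 motif lay in 21 peaks, or 10.3% beside 16.1%, and an AP-1 motif in 16, or 7.84% beside 8.11%. The Fox windows were less AT-rich, with 44.2% A+T beside 47.3%. Of the 18 forkhead matches 9 were at Foxp1 and 2 were at promoters, those of Foxj3 and Foxd1. A match describes letters in a window, and binding was not measured.

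Windows of 201 bp around the summit are given for 5 peaks chosen as examples after the values were seen. The first 2 are the Foxp1 intron peaks with the consensus TGTTTAC, which lies 2 and 49 bp from the summit. Then follows a Foxp1 intron peak with 2 ARID3 matches, at which every cKO list ranked above every WT list. The last are the Foxj3 peak with the highest difference, with an ARID3 match, and the Foxn3 peak with the lowest, with no match. Matches are in capitals and sequences are from the plus strand of GRCm38.p6.
Foxp1 intron, chr6:99021111-99021311: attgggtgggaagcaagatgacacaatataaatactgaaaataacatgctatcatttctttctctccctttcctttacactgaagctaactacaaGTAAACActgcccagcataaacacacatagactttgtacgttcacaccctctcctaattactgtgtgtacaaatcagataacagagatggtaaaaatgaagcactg
Foxp1 intron, chr6:99012005-99012205: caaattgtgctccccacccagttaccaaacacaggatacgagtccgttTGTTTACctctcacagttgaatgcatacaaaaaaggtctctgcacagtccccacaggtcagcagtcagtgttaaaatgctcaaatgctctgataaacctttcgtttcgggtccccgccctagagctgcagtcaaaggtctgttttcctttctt
Foxp1 intron, chr6:99206529-99206729: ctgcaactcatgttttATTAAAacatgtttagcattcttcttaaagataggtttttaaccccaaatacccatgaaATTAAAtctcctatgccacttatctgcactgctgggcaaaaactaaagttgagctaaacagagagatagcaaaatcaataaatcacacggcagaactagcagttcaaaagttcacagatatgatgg
Foxj3 intron, chr4:119589560-119589760: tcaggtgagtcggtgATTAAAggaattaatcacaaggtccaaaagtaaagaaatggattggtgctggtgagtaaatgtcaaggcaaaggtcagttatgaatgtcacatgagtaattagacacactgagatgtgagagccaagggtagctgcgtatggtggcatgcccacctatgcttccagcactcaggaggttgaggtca
Foxn3 intron, chr12:99366148-99366348: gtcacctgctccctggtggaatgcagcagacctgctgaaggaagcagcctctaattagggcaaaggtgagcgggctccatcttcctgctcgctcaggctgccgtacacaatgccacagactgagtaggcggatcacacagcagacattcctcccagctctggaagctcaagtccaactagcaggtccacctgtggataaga

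The 2 Foxp1 peaks with TGTTTAC ranked in the middle of their lists. The one with the match 2 bp from its summit lay at 41.5, 25.5 and 47.8 in WT and 54.6, 34.3 and 43.4 in cKO, and the other at 26.6, 40.4 and 34.5 in WT and 52.4, 25.6 and 48.4 in cKO. Both overlapped between genotypes. The Foxp1 peak shown with 2 ARID3 matches lay at 70.6, 66.1 and 69.8 in WT and 71.2, 71.1 and 81.6 in cKO, a mean difference of 5.78 points (exact permutation p = 0.1). Another Foxp1 intron peak with 2 ARID3 matches (chr6:99120565-99122327) is not shown. It lay at 65.4, 60.3 and 63.8 in WT and 71.5, 51.1 and 75.8 in cKO, and the genotypes overlapped.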

How the data were processed

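ATAC-seq peaks were called by the authors per sample with MACS in the nf-core ATAC-seq pipeline after trimming, alignment to GRCm38 with BWA and blacklist filtering; tool versions are not used here, and no input control was described. Each deposited list gives a score, a fold enrichment, a -log10 p and a -log10 q per peak. In the authors' fold column the ratio compares the summit pileup with the local background, and the authors' -log10 p and q columns come from a Poisson model. The score deposited by the authors was not used. Total reads were not used here, so coverage and pileups were inferred from fold and -log10 p, and precision is limited to the spread between 3 lists.

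Samples were grouped by genotype from their labels, which number replicates and do not say that each came from a separate animal, so p-values measure the spread between these samples. Only peaks on the autosomes, X and Y entered. Ranks were converted to normal scores and fitted with limma 3.58.1 in all 32748 peaks of 6 lists, with Benjamini-Hochberg adjustment over all of them and no covariate, and single values were compared by exact two-sided permutation. The fit was checked on simulated data. Python 3.11.15, numpy 2.4.6, pandas 2.3.3, scipy 1.17.1 and pysam 0.24.0 were used. Genes of the gut endoderm, FOXO, dividing, FOXP, broad, mesenchymal and epithelial lists were named in full, with the 5 members of most peaks, members with no peak or a promoter called in 1 to 5 lists and the 3 largest rank differences each way. Members, lists and motifs were chosen with earlier results of these data known. Alternatives are given in the closing section.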

Additional observations from a re-analysis of the deposited data

How the results depend on the processing

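Of 178 recomputed values 163 kept their direction and their side of the threshold, or stayed within 1.5 times a count. That number does not measure robustness. The exact permutation tests could not pass 0.05, since their smallest p is 0.1, or 0.25 with a replicate block. For tested values size was not weighed, so a median promoter difference of -0.35 in place of -5.96 counted as kept. The mean difference in Fox-locus peaks per list (6.33, cKO minus WT) turned to -5.67 with lists cut to equal length and lay between -2.67 and 16.3 with 1 sample left out, falling below 0 without WT 1 (-2.5) and without cKO 1 (-2.67). The difference in called loci ran from -0.167 to 1.83 with 1 sample left out (-0.167 without WT 1). The difference in called promoters was -0.333 with a promoter of 500 bp either side and ran from -0.167 to 2.17 with 1 sample left out (-0.167 without cKO 3); counting peaks over a TSS, added after the data were seen, gave 1.33. Peaks in cKO only numbered 1 with equal length and 0 to 10 with 1 sample left out, the highest without cKO 2 (2 without cKO 3, 1 without WT 3), and peaks in WT only numbered 1 with equal length and 0 to 1 with 1 sample left out. The median promoter rank stayed lower in cKO, by -10.1 with equal length and by -0.35 when ranked by -log10 q. The cause of these shifts was not tested. limma called 0 Fox peaks in each of its 15 settings, with lowest adjusted p from 0.306 (without cKO 2) to 1.0. The 6 peaks with the largest differences, picked from these same data, kept their direction in the 75 recomputed values they had. Settings that change only the window return the same score. Not every setting kept each peak: Foxj3 and Foxd1 had no value with equal list length. Neither they nor the 2 Foxp1 peaks had one at a -log10 q of at least 5. With 1 sample left out, the limma score difference moved from -0.519 to -0.145 at Foxd1 (without cKO 2), from -0.535 to -0.299 at Foxc1 and from 0.845 to 0.322 and 0.549 to 0.307 at the 2 Foxp1 peaks (without WT 1), and from 0.912 to 0.548 (without cKO 1) or 1.42 (without cKO 2) at Foxj3. FOXA-locus peaks lower in cKO by limma score numbered 8 of 10, 5 of 10 by -log10 q, 5 of 5 when summits within 250 bp were chained and 8 to 10 in the other settings with the same window; it was 2 of 3 with 0 kb added and 11 of 18 with 50 kb, a count chosen after the data were seen. Windows of 0 and 50 kb held 150 and 369 consensus peaks. The deviations of same-numbered WT and cKO samples correlated at -0.272, -0.019 and 0.125, and those of different-numbered ones at -0.328 to 0.308. The labels do not say whether the numbers pair the samples, and so few correlations cannot settle it. With a replicate block limma again called 0 Fox peaks, and the mean differences were unchanged. Pileups at Fox peaks ran from 10 to 431 fragments.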
